A study of Mus musculus with 4 samples.

Results

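Egr1 to Egr4, Nr4a1 to Nr4a3, Arc and Npas4 are 9 genes whose transcripts neurons make within minutes of being activated. They were measured in the globus pallidus of male mice, as ratios between a cocaine mouse and a saline mouse on each of 4 two-channel arrays. Members were taken by name: a spot was kept where the platform annotation gave exactly 1 gene symbol and that symbol was on the list, and the spots of a gene were averaged. All 9 genes were found, on 20 of 45220 spots, among 19087 genes with 1 symbol. Egr2 had 10 spots, Egr3 and Nr4a2 had 2 each, and the other genes had 1.

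The mice were of the C57BL6 background, and animals of both treatments went through conditioned place preference, a test of how far an animal prefers a compartment it has learned to associate with a drug. The cocaine dose was 15 mg/kg, given on each of the days 2, 3 and 4, and control mice had saline on those days. All cocaine mice were animals with a low preference score, so that effects of cocaine and of scoring low cannot be told apart. Ages and the time between the last injection and dissection are not given in the sources used here. The cocaine RNA carried Cy5 on arrays 1 and 3 and Cy3 on arrays 2 and 4. Each array is taken as 1 replicate, because every channel has its own animal code. The globus pallidus is a basal ganglia nucleus of mostly GABAergic neurons, adjoining the striatum.

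Activity genes of this kind need no new protein for their induction. Synaptic input raises calcium and cyclic AMP, kinases then act on transcription factors that are already in place, chiefly CREB at cyclic AMP response elements (CRE) and SRF at CArG boxes, and transcription starts. Egr proteins are zinc finger transcription factors, Nr4a proteins are orphan nuclear receptors, Npas4 is a neuron-specific bHLH-PAS factor, and Arc is a cytoskeleton-associated protein that controls AMPA receptor endocytosis. In the striatum, acute cocaine is known to induce several of them, among them Egr1 and Arc.

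Promoters of members were searched for letter matches to elements through which neuronal activity acts. RefSeq windows of 300 bases (build GRCm38.p6, 250 bases before the start site and 50 from it on) were on hand for 6 of the 9 genes, Egr2, Egr4, Nr4a1, Nr4a2, Nr4a3 and Npas4. The 4 printed here, 5′ to 3′ on the strand of the gene, are those of 3 genes whose ratios were highest on arrays 2 and 3, followed by Nr4a3, whose ratio was lowest on array 3. Capitals mark the matches to the motifs searched on both strands: CRE (TGACGTCA), its first 5 letters as the CRE core (TGACG), the EGR sites GCGTGGGCG and GCGGGGGCG, the Nr4a response element NBRE (AAAGGTCA), TATAAA and the CArG box. A CRE core on the minus strand reads as CGTCA.
Egr2 (chr10:67537619-67537918, plus strand): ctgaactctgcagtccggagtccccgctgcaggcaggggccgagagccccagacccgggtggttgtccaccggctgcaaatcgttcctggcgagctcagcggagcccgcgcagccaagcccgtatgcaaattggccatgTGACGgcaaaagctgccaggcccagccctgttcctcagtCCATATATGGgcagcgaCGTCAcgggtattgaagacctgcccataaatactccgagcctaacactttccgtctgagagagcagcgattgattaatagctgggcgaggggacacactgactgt
Egr4 (chr6:85513540-85513839, minus strand): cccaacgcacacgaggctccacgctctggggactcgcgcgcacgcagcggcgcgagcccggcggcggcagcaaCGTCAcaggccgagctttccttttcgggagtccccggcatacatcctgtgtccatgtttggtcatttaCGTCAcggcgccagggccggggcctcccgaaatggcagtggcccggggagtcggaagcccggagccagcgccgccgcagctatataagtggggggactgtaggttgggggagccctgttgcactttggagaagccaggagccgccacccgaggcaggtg
Nr4a1 (chr15:101266596-101266895, plus strand): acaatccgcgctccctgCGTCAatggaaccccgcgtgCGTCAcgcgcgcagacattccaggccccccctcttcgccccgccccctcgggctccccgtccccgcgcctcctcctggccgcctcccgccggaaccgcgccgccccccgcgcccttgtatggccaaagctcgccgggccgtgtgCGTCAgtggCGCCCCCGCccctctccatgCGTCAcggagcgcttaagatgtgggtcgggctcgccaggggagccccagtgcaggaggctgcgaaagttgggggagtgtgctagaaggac
Nr4a3 (chr4:48045055-48045354, plus strand): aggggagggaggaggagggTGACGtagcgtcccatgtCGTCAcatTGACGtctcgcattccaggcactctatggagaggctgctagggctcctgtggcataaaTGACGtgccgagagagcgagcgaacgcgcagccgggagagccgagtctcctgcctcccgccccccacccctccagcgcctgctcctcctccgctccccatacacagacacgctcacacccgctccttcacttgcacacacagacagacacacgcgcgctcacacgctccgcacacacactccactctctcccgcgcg

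In 1 window for each of the 6 genes the CRE core had at least 2 matches, against 20.8% of all 32851 windows with a match and 5.01% with 2 or more. Among the 9690 windows with at least 60% G and C the shares were 31.6% and 9.30%, and the 4 printed windows had between 60.0% and 72.3%. The full CRE, which contains the core, was found in none of the 6 and in 1.79% of all windows. Egr2 has 5 windows from 5 start sites, of which the one printed was the earliest listed with the most matches, and 2 of the 5 hold no CRE core. Its CArG box lies at -72 to -63 from the start site, between CRE cores at -111 to -107 and -55 to -51. CArG boxes were in 1.63% of all windows. Nr4a1 has the EGR site GCGGGGGCG on the minus strand, at -60 to -52, flanked by CRE cores, and this site was in 2.91% of all windows. Nr4a2 has a TATAAA on the minus strand, and TATAAA was in 13.6% of all windows. GCGTGGGCG (0.612% of all windows) and NBRE (1.51%) were in none of the 6. No matches overlapped in a printed window. These are letter matches, not binding sites.

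**Figure D1:**
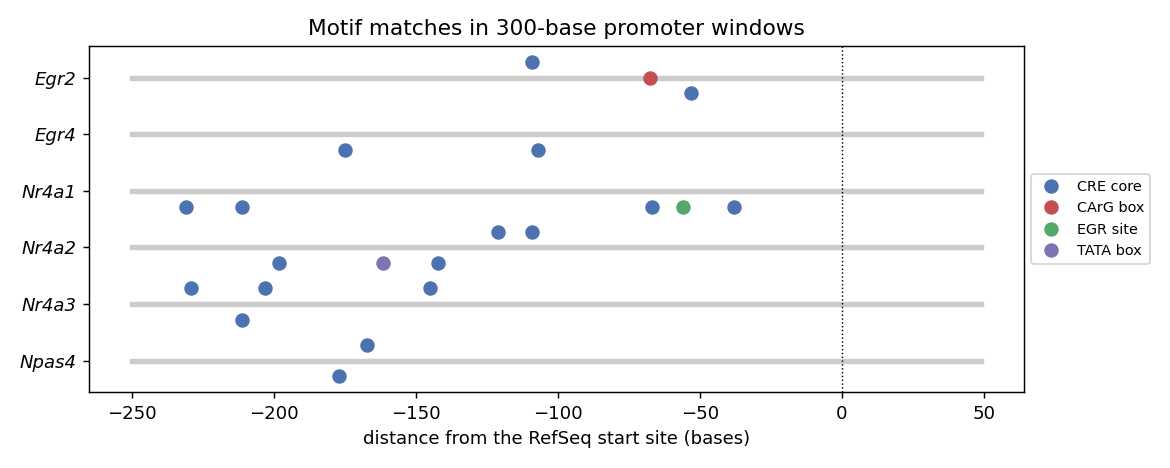
Motif matches in the promoter windows of 6 genes. The x axis gives the distance from the RefSeq start site in bases, each grey bar is 1 window, points above a bar lie on the strand of the gene, points below it on the other strand, and points on the bar on both. All 6 genes have 2 or more CRE cores, and the CArG box is seen in Egr2 alone.

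Each value below is a log2 ratio, likely cocaine over saline, after removal of the dye bias of its array. The deposited ratios do not settle which treatment is the numerator, and every direction turns if it was saline. They were strongly tied to the dye: the columns had medians of 0.33, -0.25, 0.49 and -0.56 on arrays 1 to 4 and correlated between -0.96 and -0.83 across spots where the dye orientation differed. For Egr1 the deposited ratios were 1.01, -0.28, 2.17 and -1.71. Each array was therefore set on a curve (loess) of the dye bias averaged over both orientations. This makes the mean of arrays 1 and 3 nearly equal to the mean of arrays 2 and 4 for each gene, so that the 4 values of a gene are not independent. No intensities were used here, and the averaged dye bias stood in for them. That it rises with brightness was assumed and not checked, and bright, dim and above background are meant in this sense. By this stand-in the spots of Egr1, Egr2, Egr4, Nr4a1, Nr4a2, Arc and Npas4 were above the background limit of 0.115. The spot of Nr4a3 and 1 of the 2 spots of Egr3 were not.

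Over the 4 arrays, 8 of the 9 genes had a mean above 0, against 48.0% of 19087 genes (52.0% had a mean below 0), and the median of the 9 means was 0.17, against -0.003 for all genes. None passed the test on which the values below rest. With limma and Benjamini-Hochberg adjustment over all 30452 features, 0 features (0%) had an adjusted p under 0.05, and the adjusted p of each of the 9 genes was 0.999. Before adjustment, 529 features had a p under 0.05. At an unadjusted p under 0.05, 2 of the 9 were higher, Egr3 and Nr4a1, against 0.849% of genes higher, 0.671% lower and 1.52% in either direction. These were also the only members above 0 on all 4 arrays, against 8.0% of genes above and 6.76% below 0 on all 4. With saline as the numerator the members would be set against the shares below 0. Both summaries depended on single arrays. Without array 3 the genes with a mean above 0 were 5 of 9, without arrays 1 or 4 they were 7, and without array 2 they were 9, counts added after the data were seen. The median was 0.09 without array 3, 0.12 without array 2, 0.26 without array 4 and 0.29 without array 1. The members were chosen with earlier results of these data known, and their counts are a description.

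**Figure D2:**
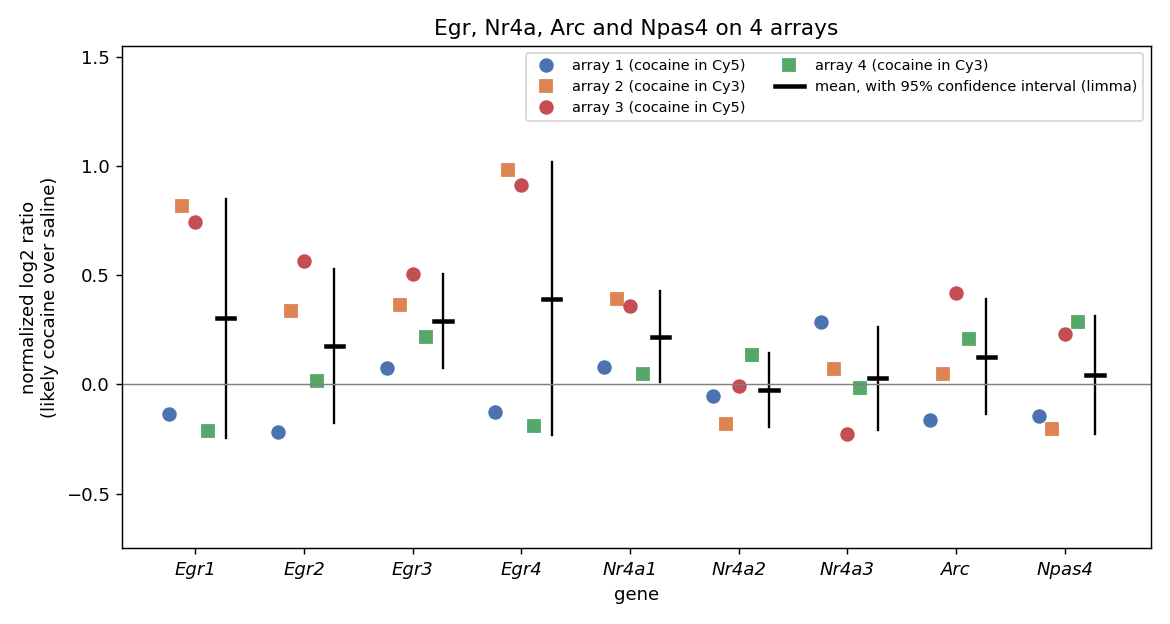
Normalized log2 ratios of the 9 genes on 4 arrays. The y axis gives the log2 ratio, points are arrays (circles with cocaine in Cy5, squares with cocaine in Cy3), and black bars are the limma mean with its 95% confidence interval. Egr1 and Egr4 stand between 0.75 and 0.98 on arrays 2 and 3 and between -0.21 and -0.13 on arrays 1 and 4.

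The 4 Egr genes all had their highest values on arrays 2 and 3, array 2 first in Egr1 and Egr4 and array 3 first in Egr2 and Egr3. Egr4, the zinc finger factor with the widest spread, had log2 ratios of -0.13, 0.98, 0.91 and -0.19 on arrays 1 to 4. Array 2 thus showed a 1.97-fold difference and array 3 a 1.88-fold difference, while arrays 1 and 4 lay below 0. The mean was 0.39 (SE 0.25, n = 4 arrays), with a 95% confidence interval from -0.23 to 1.02, that is from 0.851-fold to 2.03-fold. Egr4 passed in 1 alternative fit, without the 10% of features with the smallest spread, where limma gave an adjusted p of 0.011 with 1 common error for all genes. Egr1, also called Zif268 and one of the most used activity markers in brain, followed Egr4 closely, with -0.14, 0.82, 0.75 and -0.21. Its mean was 0.30 (SE 0.22) and its interval ran from -0.24 to 0.85. The root mean square difference between the profiles of Egr1 and Egr4 was 0.12, the second smallest of the 36 pairs of members.

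Egr2, a factor also known from myelinating Schwann cells, had -0.22, 0.34, 0.56 and 0.02 on arrays 1 to 4, with a mean of 0.17 (SE 0.14) and an interval from -0.18 to 0.53. Its 10 spots, all annotated to 1 transcript, give the error within an array. On array 1 they ranged from -0.53 to -0.11, on array 2 from 0.17 to 0.53, on array 3 from 0.47 to 0.71 and on array 4 from -0.25 to 0.18. The SD over the 10 spots lay between 0.07 and 0.13 on each array, while the SD of the gene over the 4 arrays was 0.35. Arrays 1 and 3 did not overlap in any spot, and every spot had its highest value on array 2 or 3. The spots share 1 RNA per channel, so they bear on measurement error and not on differences between animals. Without array 3 the mean of Egr2 was -0.046.

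Egr3, a factor also needed for muscle spindles to form, was the member with the smallest p. Its log2 ratios were 0.08, 0.36, 0.51 and 0.22 on arrays 1 to 4, all above 0. The mean was 0.29 (SE 0.08), which is 1.22-fold, with an interval from 0.08 to 0.50. The unadjusted p of limma was 0.017 and the adjusted p 0.999. The spot above background had 0.02, 0.55, 0.65 and 0.11, highest on arrays 2 and 3, and the dim spot, highest on arrays 3 and 4, had 0.14, 0.18, 0.37 and 0.32. With the brighter spot alone the mean was 0.33, with an unadjusted p of 0.027 and an adjusted p of 0.9999 by limma. Without single arrays the mean lay between 0.17, without array 3, and 0.39, without array 1. Without array 3 the unadjusted p was 0.098 and the adjusted p 0.9999 by limma.

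**Figure D3:**
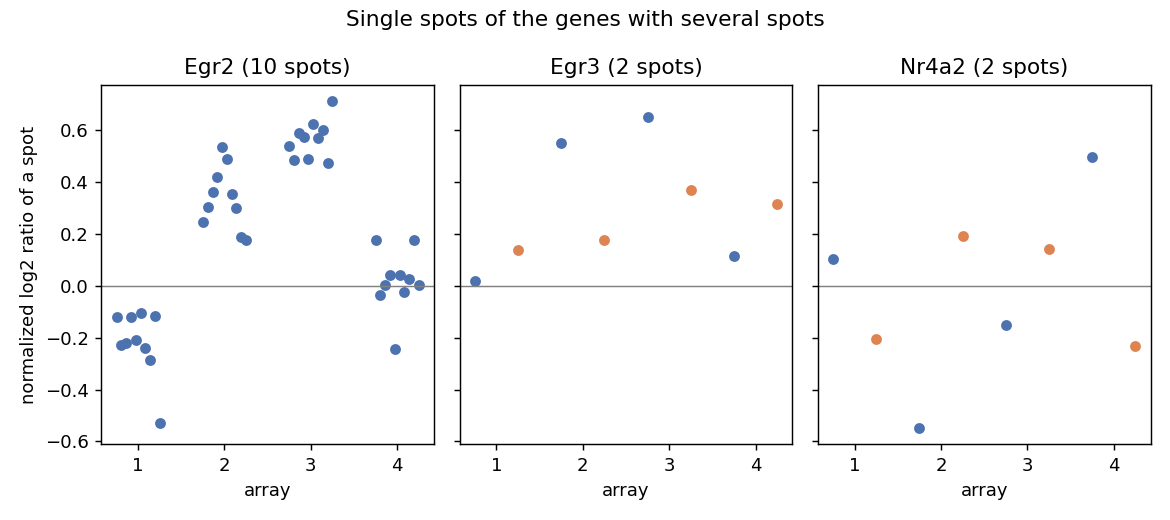
Log2 ratios of single spots of Egr2, Egr3 and Nr4a2. The x axis gives the array, the y axis the normalized log2 ratio, and each point is 1 spot. For Egr3 and Nr4a2 each colour is 1 of the 2 spots. The 10 Egr2 spots stay together on each array, while the 2 spots of Nr4a2 lie on opposite sides of 0 on all 4 arrays.

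The 3 Nr4a receptors did not share an order of arrays. Nr4a1, also called Nur77 and regulated by dopamine in the striatum, had 0.08, 0.39, 0.36 and 0.05 on arrays 1 to 4, all above 0 and highest on the same arrays as the Egr genes. The mean was 0.22 (SE 0.08), which is 1.16-fold, and the interval ran from 0.01 to 0.43. By limma the unadjusted p was 0.043 and the adjusted p 0.999. The unadjusted p of limma was 0.055 with a variance prior that follows the averaged dye bias. It was 0.11 without array 2 and 0.22 without array 3, each of the 3 beside an adjusted p above 0.99.

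Nr4a2, or Nurr1, which midbrain dopamine neurons need to develop, had -0.05, -0.18, -0.01 and 0.13 and a mean of -0.03 (SE 0.07). The interval from -0.20 to 0.14 spans 0.873-fold to 1.1-fold, the narrowest of the 9. This mean hides spots that disagreed. The spot annotated to a cDNA clone had 0.10, -0.55, -0.15 and 0.50, and the spot annotated to the RefSeq transcript had -0.20, 0.19, 0.14 and -0.23. The RefSeq spot was thus highest on arrays 2 and 3, like the Egr genes at a smaller size, and the clone spot ran the other way. Nr4a3, or NOR1, had 0.29, 0.07, -0.23 and -0.02, with a mean of 0.03 (SE 0.09). It was the 1 member with no spot above background.

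In Arc and Npas4 arrays 3 and 4 were highest, array 3 first in Arc and array 4 first in Npas4. Arc had -0.16, 0.05, 0.42 and 0.21 on arrays 1 to 4, with a mean of 0.13 (SE 0.10) and an interval from -0.14 to 0.39. Its mean turned to -0.023 without array 3. Npas4 had -0.14, -0.20, 0.23 and 0.29, with a mean of 0.04 (SE 0.11) and an interval from -0.23 to 0.31. Its arrays thus split evenly around 0.

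Ordered by mean, the genes ran from Egr4 (0.39) through Egr1 (0.30), Egr3 (0.29), Nr4a1 (0.22), Egr2 (0.17), Arc (0.13), Npas4 (0.04) and Nr4a3 (0.03) to Nr4a2 (-0.03). All neighbours in this order had overlapping confidence intervals. The intervals of Egr3 and Nr4a1 alone left out 0.

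Egr1, Egr2 and Egr4 varied more between arrays than most genes did. The SD over the 4 arrays was 0.64 for Egr4, 0.55 for Egr1 and 0.35 for Egr2, against a median of 0.089 over all genes. Among the 13864 genes with a spot above background, whose median SD was 0.106, Egr4 was at percentile 99.9, Egr1 at 99.8 and Egr2 at 98.1. Npas4 (92.5) and Arc (92.0) followed, then Egr3 (81.1), Nr4a1 (79.9) and Nr4a2 (61.9). Egr4 and Egr1 had 1 spot each, while genes with several spots were ranked on the average of their spots. The effect of the number of spots on these ranks was not tested. Within a dye orientation, where the dye bias largely cancels, Egr4 was 1.04 higher on array 3 than on array 1 and 1.17 higher on array 2 than on array 4, and Egr1 was 0.88 and 1.03 higher.

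**Figure D4:**
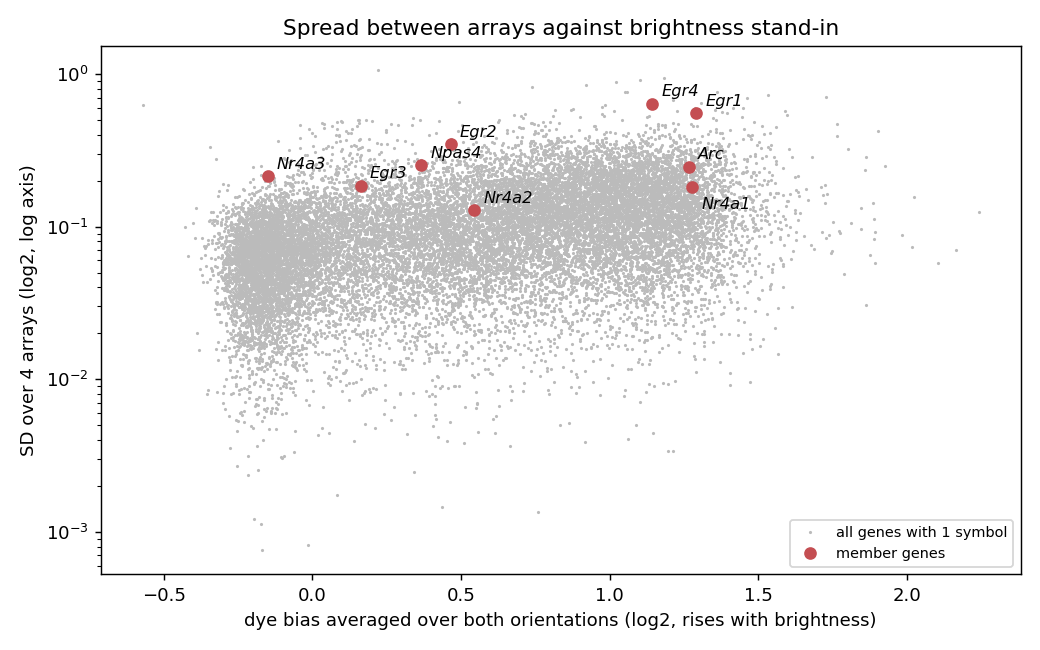
SD of the log2 ratio over 4 arrays against the averaged dye bias. Each grey point is 1 of 19087 genes, the y axis is logarithmic, and the x axis is the stand-in for brightness. Egr4 (0.64) and Egr1 (0.55) lie at the upper edge of the cloud.

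Arrays 2 and 3 held the highest values of 5 of the 9 genes, the 4 Egr genes and Nr4a1, against 22.9% of all genes. Because the normalization gives each dye orientation 1 higher and 1 lower array, the highest pair mostly holds 1 array of each orientation. Of 25 markers of striatal projection neurons 12 had this highest pair, and the median of that list was -0.01, 0.21, 0.12 and -0.10 on arrays 1 to 4. Drd1, the D1 dopamine receptor of the direct pathway, had 0.13, 0.89, 0.44 and -0.30. Its mean was 0.29 (SE 0.20), and it was among the genes closest to Egr4. Drd2, the D2 receptor of the indirect pathway, had -0.39, -0.12, 0.18 and -0.07, and Ppp1r1b, or DARPP-32, had -0.32, -0.01, 0.20 and -0.10. Of the 25 markers 24 had a spot above background, and the striatum adjoins the dissected nucleus. The other 13 markers had another highest pair, as Drd2 did, and the part of striatal tissue in the Egr values was not tested. As these are ratios of bulk tissue, fewer cells of a type and less RNA per cell cannot be told apart.

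Pallidal neuron markers, the neurons that the label names, had a spot above background in 18 of 18 measured genes and medians of -0.05, 0.003, 0.004 and -0.08. Arrays 2 and 3 were highest in 7 of these 18, against 22.9% of all genes, and the list shares Penk with the striatal markers. The list for excitatory neurons of cortex or thalamus had medians of -0.06, 0.08, 0.10 and 0.03, with arrays 2 and 3 highest in 5 of 19, and 13 of 19 above background. The lists of cholinergic neurons, oligodendrocytes, astrocytes, microglia, endothelial and mural cells and blood had array medians between -0.26 and 0.11, the lowest in microglia (array 2) and the highest in blood (array 4). Means were below 0 in 10 of 11 oligodendrocyte, 7 of 8 cholinergic, 6 of 7 microglial and 5 of 8 astrocyte markers. The same held for 12 of 18 pallidal markers, against 52.0% of all genes. Means were above 0 in 7 of 8 endothelial and mural markers and in 3 of 5 blood markers. Of the cortical or thalamic list 13 of 19 were above 0, and of the striatal list 14 of 25, against 48.0% of all genes. Slc5a7, the choline transporter of cholinergic neurons, had the lowest mean of all genes, with -1.89, -0.08, 0.21 and -1.62 on arrays 1 to 4 and a mean of -0.84 (SE 0.41), and it was named after its values were seen. The part of these cells in the results was not tested.

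Among the genes that act with the members, no list had a member past the adjusted threshold. Of 33 other immediate early genes 18 had a mean above 0, against 48.0% of all genes, with a median of 0.01. At an unadjusted p under 0.05 by limma 1 was higher and 2 lower, against 0.849% and 0.671% of all genes. Fos, the partner of Jun in AP-1, had 0.12, 0.36, 0.39 and 0.17, above 0 on all arrays and highest on arrays 2 and 3. Its mean was 0.26 (SE 0.07) over 11 spots. Fosb had a mean of -0.11 (SE 0.07) and Junb of 0.13 (SE 0.06). Per1, a clock gene also induced by cyclic AMP, had the smallest p of this list, with -0.36, -0.48, -0.34 and -0.20. Only 7 of these 33 genes had arrays 2 and 3 highest, close to the 22.9% of all genes. Of 25 upstream activators 16 were above 0, against 48.0% of all genes, with a median of 0.02. Creb1, the CRE-binding factor, had 0.15, 0.51, 0.02 and -0.34 over 12 spots, with a mean of 0.08 (SE 0.14), and Srf had -0.12, -0.13, -0.01 and -0.01. Camkk2 and Mef2c, the genes of this list with the smallest p, had means of 0.10 (SE 0.06) and 0.17 (SE 0.10).

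Nab1 and Nab2 are corepressors that bind Egr proteins, and Nab2 is itself an Egr target. Nab2 had 0.12, 0.02, 0.15 and 0.27, above 0 on all arrays, with a mean of 0.14 (SE 0.06). Nab1 had a mean of 0.11 (SE 0.09). Rxrg, a retinoid receptor of the family that pairs with Nr4a1 and Nr4a2, had 0.11 (SE 0.07). In all 6 of 10 partners and repressors and 6 of 10 Arc interaction partners had means above 0, against 48.0% of all genes. The medians of these 2 lists were 0.03 and 0.01. Of the Arc partners, Dnm2, an endocytic dynamin, had a mean of -0.10 (SE 0.06) and Camk2b of 0.07 (SE 0.05).

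Delayed activity genes are those that neurons switch on after the early factors, many of them secreted peptides. Of 14 measured, 10 had a mean above 0, against 48.0% of all genes, with a median of 0.03. By limma 0 of them had an unadjusted p under 0.05, against 1.52% of all genes. Arrays 2 and 3 were highest in 10 of the 14, against 22.9% of all genes. The list shares Penk, Pdyn and Tac1 with the striatal markers, and 7 of the other 11 had this highest pair. Pdyn, the dynorphin precursor of direct pathway neurons, had 0.37, 1.43, 0.64 and -0.41, with a mean of 0.51 (SE 0.29). Rasgrp1, a Ras activator, had a mean of 0.20 (SE 0.12). Bdnf, whose 11 spots covered the neurotrophin, had -0.19, 0.07, 0.51 and 0.24, with arrays 3 and 4 highest as in Arc, and a mean of 0.15 (SE 0.12). Homer1, from the list of other immediate early genes, is a synaptic scaffold with an activity-induced short form. It had a mean of 0.02 (SE 0.06) over 3 spots that need not read that form.

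**Figure D5:**
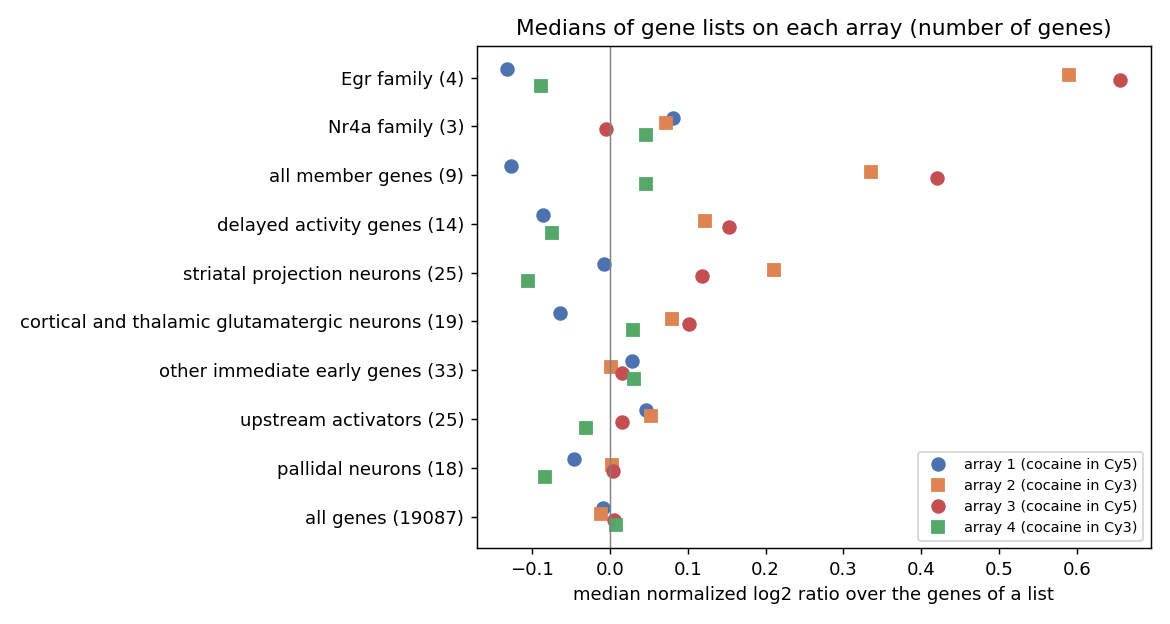
Medians of gene lists on each array. The x axis gives the median normalized log2 ratio over the genes of a list, points are the 4 arrays as labelled, and the number of genes is in brackets. The Egr family stands at 0.59 and 0.65 on arrays 2 and 3. Medians of delayed activity genes and of striatal, pallidal and cortical or thalamic markers are also higher there than on arrays 1 and 4. The median of all genes stays between -0.01 and 0.01.

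The genes outside the list whose 4 values came closest to Egr4, by root mean square difference over the 4 arrays, were Crym (0.15), Cracdl (0.26), Lamp5 (0.27), Drd1 (0.28) and Icam5 (0.29). Crym, a thyroid hormone-binding crystallin, had -0.24, 1.08, 1.17 and -0.16, a wider range than that of Egr4 itself. The genes closest to the median profile of the 9 members (-0.13, 0.34, 0.42 and 0.05) were Hs3st2 (0.03), Mei1 (0.03), Rprml (0.04), Lhx2 (0.06) and Nwd2 (0.07). Lhx2 is also on the list for excitatory neurons of cortex or thalamus, as Drd1 is on that of striatal neurons. With 4 arrays, 3 of whose values are free after normalization, such likeness is a description.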

How the data were processed

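The deposited table of the authors holds 1 log2 ratio per spot for each of 4 arrays (60-mer probes). Per the labels' protocols, 75 ng of total RNA per sample was linearly amplified and labelled with Cy3 or Cy5. Agilent Feature Extraction is the software listed in the submitters' processing notes, and the background correction, the scale and the direction of the ratio are not given in the sources used here. The log2 scale, the absence of normalization between channels and the common treatment direction were read from the values, and cocaine as the numerator is likely from the order of treatments in the series' design text. The number of arrays limits the precision. SEs and p-values rest on the spread between these 4, which limma draws towards a prior from all features (3.21 prior degrees of freedom). For genes of wide spread, such as Egr4, the SE is therefore smaller than their own spread alone would give.

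Spots at 0 on every array (202) were removed. Each array was corrected by loess (span 0.3) on the averaged dye bias, and spots of 1 gene were averaged. Of the probes 33653 had 1 symbol, 56 several and 11511 none, and the 9 genes matched RefSeq by Entrez identifier. limma 3.58.1 in R 4.3.3 fitted a treatment and a dye term (5.21 total degrees of freedom). The background limit lies 3 SDs above the lower mode of the averaged dye bias, taken as the mode of dim spots. The fit was tested on simulated data whose planted effects were all larger than the means of the members, so effects of their size were not tested. Alternatives were median centring, no normalization, span 0.6, no dye term, bright spots alone, a variance prior with a trend, removal of features of low spread, single spots, and leaving out each array.

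The members, the lists and the tests were chosen with earlier results of these data known. Genes named beside the members are 12 fixed by name, the 2 of each pathway list with the smallest p, and the 5 most like Egr4 and the members' median. The planned comparison of protein sequences was not run.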

Additional observations from a re-analysis of the deposited data

How the results depend on the processing

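No member passed in any fit but 1. Without the 10% of features with the smallest spread, 60 features and 1 member, Egr4, had an adjusted p under 0.05 by limma (adjusted p 0.011, against 0.412 or more in the other fits). In that fit the prior on the variance was taken as infinitely strong, so that every gene had 1 common SE of 0.091, in place of 0.25 for Egr4, and the spread of Egr4 between arrays no longer entered its error. With each array centred on its median 18 features and 0 members passed, and the p-values of the members in that fit also follow from 1 common error. The other fits called 0 features.

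The means of the members kept their sign under each change of normalization, span, dye term, prior, background limit and spot averaging (Nr4a3 had no value with bright spots alone). Signs turned only where 1 array was left out: the mean then ranged from -0.023 to 0.27 for Arc, from -0.046 to 0.36 for Egr2, from -0.092 to 0.15 for Npas4, from -0.12 to 0.035 for Nr4a2 and from -0.082 to 0.17 for Nr4a3. The causes were not tested. There, the remaining array of that orientation weighs as much as the other pair together. The number of members with a mean above 0 ranged from 5 to 9 in these fits. Ranges were 0.09 to 0.55 for Egr1, 0.12 to 0.68 for Egr4 and 0.13 to 0.32 for Nr4a1. Each ratio already compares 1 cocaine with 1 saline mouse, and the labels give no replicate numbers for a further block. Dim spots limit Nr4a3 and 1 Egr3 spot.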
